A study of Mus musculus with 9 samples.

Results

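The metabotropic glutamate receptor genes are read here in mRNA of the mouse nucleus accumbens, a ventral striatal region involved in reward whose neurons are mostly medium spiny neurons. The 6 genes Grm2, Grm3, Grm4, Grm5, Grm7 and Grm8 were found by symbol among the 21423 genes of the authors' table, and all 6 averaged 1 RPKM or more over the 9 sequencing lanes, the level from which genes were compared. RPKM is the number of reads per kilobase of gene model, scaled to the total of the lane. Adult male C57BL/6 mice aged 2 to 5 months fell into 3 groups. The withdrawal group received cocaine by daily intraperitoneal injection for 7 days and was then left in the home cage for 8 days. The cocaine group also received daily cocaine injections for 7 days and was killed 24 h after the last of them. The saline group received 10 ml/kg saline for 7 days and was likewise killed after 24 h. The labels name cocaine doses of 10 or 20 mg/kg and tie neither to a library. Each group is represented by 1 library, made from the pooled RNA of 8 mice and sequenced in 3 lanes, so lanes repeat the sequencing only and no difference between treatments has a biological replicate.

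Metabotropic glutamate receptors are G protein-coupled receptors that sense glutamate at and around synapses. Group I receptors, such as that encoded by Grm5, couple to Gq and phospholipase C, release calcium from internal stores and sit mainly beside the postsynaptic density, where Homer and Shank proteins hold them. Group II (Grm2 and Grm3) and group III (Grm4, Grm6, Grm7 and Grm8) receptors couple to Gi/o, lower cAMP and mostly restrain transmitter release from terminals. In the striatum, mGlu5 is a receptor of medium spiny neurons, and the group II receptors are studied as brakes on the glutamate input to the accumbens in models of cocaine seeking.

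Promoters of Grm3 and Grm7 are shown as 2 of the 4 genes whose mRNA was higher in both the cocaine and the withdrawal library than in the saline library (with Grm4 and Grm5), and that of Grm2 because its lanes overlapped between all libraries. The windows run from 250 bases before to 50 bases after an annotated start, were taken from RefSeq on GRCm38.p6 by symbol (4 of the 6 genes matched, all but Grm4 and Grm5), and are written 5′ to 3′ on the gene's strand, with the GC box GGGCGG in capitals. The Grm3 window lies at chr5:9725303-9725602 on the minus strand, the Grm7 window at chr6:110645262-110645561 on the plus strand and the Grm2 window at chr9:106656060-106656359 on the minus strand.
Grm3: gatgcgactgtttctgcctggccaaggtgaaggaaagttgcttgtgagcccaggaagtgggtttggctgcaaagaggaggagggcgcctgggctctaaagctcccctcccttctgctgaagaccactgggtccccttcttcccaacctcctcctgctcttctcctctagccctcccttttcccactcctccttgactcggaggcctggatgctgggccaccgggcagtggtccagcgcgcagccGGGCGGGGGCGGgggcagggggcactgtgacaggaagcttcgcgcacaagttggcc
Grm7: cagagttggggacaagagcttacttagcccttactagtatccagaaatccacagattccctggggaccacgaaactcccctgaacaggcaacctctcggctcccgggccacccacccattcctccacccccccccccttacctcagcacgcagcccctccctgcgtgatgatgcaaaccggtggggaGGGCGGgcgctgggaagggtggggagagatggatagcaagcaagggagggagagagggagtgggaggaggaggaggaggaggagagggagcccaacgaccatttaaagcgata
Grm2: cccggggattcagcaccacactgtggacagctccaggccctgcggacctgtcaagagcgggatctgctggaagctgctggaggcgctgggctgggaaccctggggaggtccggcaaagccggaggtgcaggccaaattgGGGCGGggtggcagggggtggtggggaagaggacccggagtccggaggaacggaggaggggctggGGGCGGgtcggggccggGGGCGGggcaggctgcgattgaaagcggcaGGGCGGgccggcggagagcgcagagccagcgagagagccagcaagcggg
On both strands the GC box was found 2 times in the Grm3 window, 1 time in the Grm7 window and 4 times in the Grm2 window, and 35.7% of the 32851 windows of this length in the table held it. GC content was 63.7% for Grm3, 61% for Grm7 and 72% for Grm2. Searched the same way, the CRE half-site TGACG was found in none of the 3 windows (20.8% of all windows held it), nor was the AP-1 motif TGANTCA (7.81% of all windows).

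Grm5 was the most abundant of the 6 in every library. Its level was 57.1, 47.2 and 49.4 RPKM in the 3 withdrawal lanes, 52.9, 50.1 and 54.3 RPKM in the cocaine lanes, and 40.8, 36.1 and 33.1 RPKM in the saline lanes. Every cocaine and withdrawal lane lay above every saline lane, while the withdrawal and cocaine lanes overlapped. Means were 51.2 ± 5.2 RPKM in withdrawal, 52.5 ± 2.1 RPKM in cocaine and 36.7 ± 3.9 RPKM in saline (SD, n = 3 lanes of 1 library). With between 2162 and 4622 reads per lane it was also the most deeply read member.

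Grm3, the group II receptor of neurons and glia that also binds the peptide transmitter NAAG, came next. It stood at 20.6, 22.7 and 22.1 RPKM in the withdrawal lanes, 21.6, 20.8 and 18.8 RPKM in the cocaine lanes, and 14.2, 15.6 and 13.5 RPKM in the saline lanes. Again the saline lanes were all lowest and the other lanes overlapped. Grm2, the other group II receptor, which acts as an autoreceptor on glutamate terminals, was low, with 2.99, 4.51 and 2.92 RPKM in withdrawal, 4.22, 4.03 and 3.33 RPKM in cocaine, and 3.89, 3.05 and 3.93 RPKM in saline. Its lanes overlapped between all libraries, and 72.4 to 205 reads per lane lay behind these values.

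Among the group III genes, Grm4 had 21.1, 17.7 and 15.3 RPKM in the withdrawal lanes, 14.8, 13.1 and 14.1 RPKM in the cocaine lanes, and 13.0, 12.7 and 11.9 RPKM in the saline lanes. The 3 libraries did not overlap, withdrawal being highest and saline lowest, and the spread was widest in withdrawal (SD 2.89 RPKM, against 0.853 RPKM in cocaine and 0.532 RPKM in saline). Grm7, which encodes a receptor of low glutamate affinity at presynaptic active zones, had 11.2, 12.1 and 11.9 RPKM in withdrawal, 11.7, 10.4 and 12.8 RPKM in cocaine, and 7.78, 8.68 and 8.65 RPKM in saline. Like Grm5 and Grm3, its lanes placed both other libraries above saline and did not part withdrawal and cocaine. Grm8, also a presynaptic receptor, was the lowest member, at 0.918, 1.53 and 1.27 RPKM in withdrawal, 1.20, 1.90 and 1.63 RPKM in cocaine, and 1.55, 1.90 and 1.502 RPKM in saline. Its lanes overlapped throughout, and the lane with fewest reads held 40.0 of them.

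**Figure D1:**
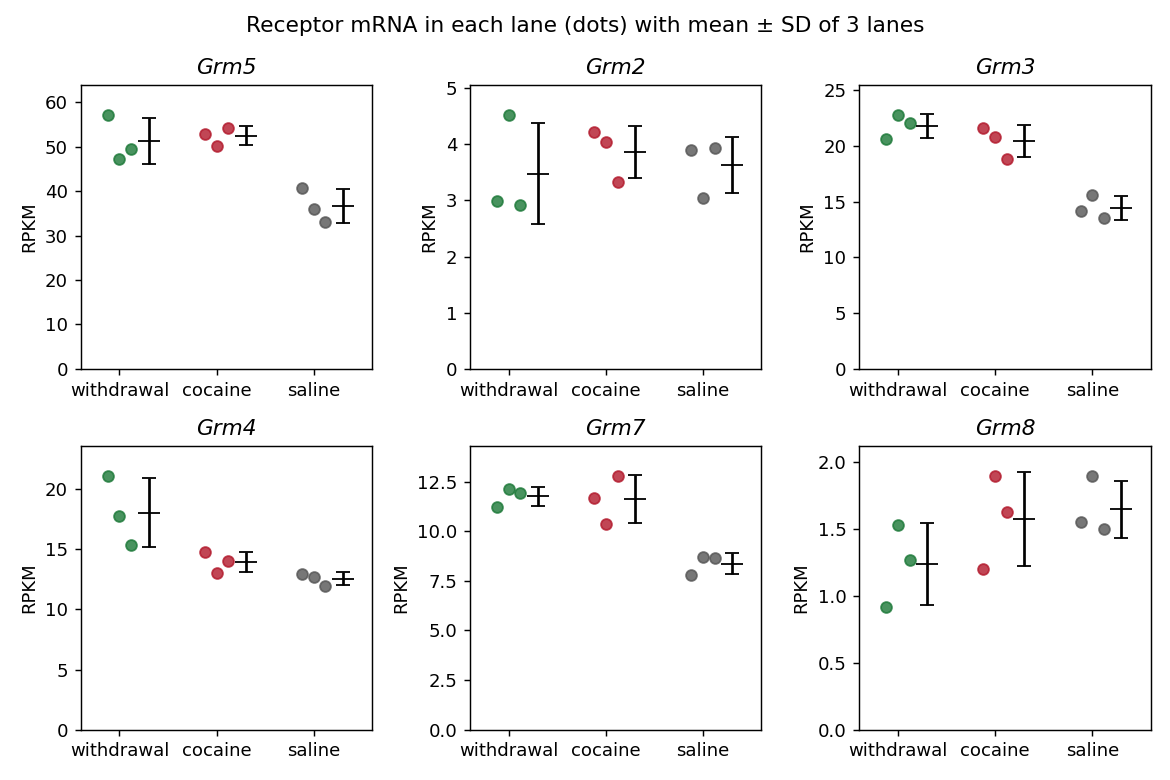
RPKM of each of the 6 receptor genes in the 3 lanes (dots) of the withdrawal, cocaine and saline libraries, with the mean and SD over lanes; axes start at 0. Grm5, Grm3 and Grm7 lanes of withdrawal and cocaine all lie above the saline lanes, Grm4 steps up once more in withdrawal, and Grm2 and Grm8 lanes overlap.

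RPKM is a value per length, so levels can be set between genes. In each library the order was Grm5, Grm3, Grm4, Grm7, Grm2 and Grm8. Grm5 exceeded Grm3 by a ratio of mean RPKM of 2.35 in withdrawal, 2.57 in cocaine and 2.54 in saline. All neighbours in this order were parted by their lanes, except Grm3 and Grm4 in the withdrawal library, whose lanes overlapped. In the saline library 84.1% of compared genes had a lower mean RPKM than Grm5, and 8.65% a lower one than Grm8. Grm6, the group III receptor of retinal ON bipolar cells and not among the 6, was near 0, with 4 reads in the withdrawal library, 2 reads in cocaine and 0 reads in saline.

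Cocaine against saline was compared first, which asks what differed 24 h after repeated injection. Differences are given on the log2(RPKM + 0.5) scale with the standard error from the lanes. A gene was called when 2 libraries differed by at least 1.5 times (0.585 on this scale) and no lane of one overlapped the other. None of the 6 genes was called in either direction, where 2.93% of the 14051 compared genes were called higher and 2.41% lower. The largest differences were 0.52 ± 0.092 for Grm5, 0.49 ± 0.082 for Grm3 and 0.45 ± 0.097 for Grm7, all short of 1.5 times. Grm4 differed by 0.15 ± 0.060, Grm2 by 0.083 ± 0.14 and Grm8 by -0.059 ± 0.17, the last pair within their error. Lanes lay apart, with cocaine higher, for Grm3, Grm4, Grm5 and Grm7, 4 of the 6 genes, against 18.3% of all compared genes higher in cocaine with lanes apart. For Grm4 the gap was narrow (lowest cocaine lane 13.06 RPKM, highest saline lane 12.97 RPKM) and closed when centred by gene length, as described below. At a limit of 25% in place of 1.5 times, Grm3, Grm5 and Grm7 were called higher, 3 of the 6 genes, against 9.78% of compared genes. The median over the 6 genes was 0.30, beside -0.047 over all compared genes. Grm5 depended on 1 lane: without the first saline lane its difference was 0.59, past 1.5 times, and scaling lanes to the same 75th percentile also put it there (0.59).

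Withdrawal was compared with the same saline library, so values of the 2 comparisons are not independent. Again none of the 6 genes was called, where 3.96% of compared genes were called higher and 3.37% lower. Grm3 differed by 0.58 ± 0.071, just under the limit, with a ratio of mean RPKM of 1.51. Grm4 differed by 0.50 ± 0.13, Grm5 by 0.48 ± 0.12 and Grm7 by 0.47 ± 0.059. These 4 genes had lanes apart and higher in withdrawal, against 18.6% of compared genes. At a limit of 25% all 4 were called higher, against 11.1% of compared genes. Grm8 was lower by -0.32 ± 0.17 and Grm2 by -0.069 ± 0.21, both with overlapping lanes. The median over the 6 genes was 0.47, beside -0.056 over all compared genes. Grm3 passed the limit without the first withdrawal lane (0.62), without the second saline lane (0.64), with a pseudocount of 0.1 (0.59), with the authors' composite values (0.59), when the median difference was moved to 0 (0.64) and with 75th percentile scaling (0.65). Grm4 passed it without the third withdrawal lane (0.61).

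Withdrawal against cocaine asks what differed after 8 days without the drug. No member was called, where 0.47% of compared genes were called higher and 0.548% lower. Grm4 was the single gene with lanes apart, higher in withdrawal by 0.35 ± 0.14, where 8.66% of compared genes were higher with lanes apart and 2.23% were called higher at a limit of 25%. Its mean was 18.0 ± 2.9 RPKM in withdrawal and 14.0 ± 0.85 RPKM in cocaine, and 96.1% of compared genes had a lower difference. The gap between its lanes was narrow (lowest withdrawal lane 15.3 RPKM, highest cocaine lane 14.8 RPKM). The Grm4 difference depended on single lanes, at 0.23 without the first withdrawal lane and 0.46 without the third. Grm5 (-0.038 ± 0.088), Grm7 (0.022 ± 0.091) and Grm3 (0.095 ± 0.071) differed by little more than the error from the lanes or less, as did Grm2 (-0.15 ± 0.20) and Grm8 (-0.26 ± 0.21). The median over the 6 genes was -0.0082, beside -0.0074 over all compared genes. In either direction 1 of the 6 had lanes apart, against 18.1% of compared genes. That number came to 3 without the first withdrawal lane, where 28.6% of compared genes had lanes apart, to 2 without the second withdrawal lane (29%) and to 2 without the first cocaine lane (29.3%). Beside Grm4, 9 of 10 medium spiny neuron markers were also higher in withdrawal than in cocaine with lanes apart, with a median difference of 0.34, and their part in the Grm4 difference was not tested.

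**Figure D2:**
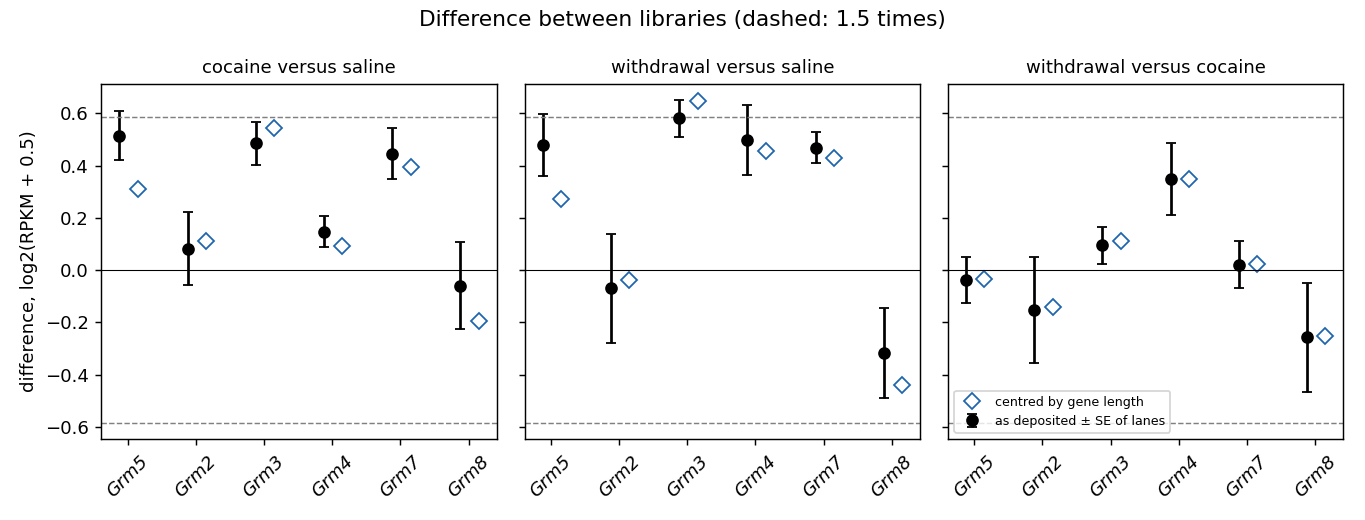
Difference of each receptor gene in log2(RPKM + 0.5), as deposited with the standard error from the lanes (black) and after centring within bins of gene length (open diamonds), for cocaine versus saline, withdrawal versus saline and withdrawal versus cocaine; dashed lines mark 1.5 times. Every black point lies within the dashed lines, with Grm3 in withdrawal versus saline at 0.58 closest to them, and its length-centred value of 0.65 outside.

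Differences from the saline library moved with gene length across all compared genes (Spearman correlation 0.464 for cocaine and 0.422 for withdrawal, as a description), and receptor genes are long. The gene models were 9419 bp for Grm5, 7850 bp for Grm8, 5406 bp for Grm7, 5136 bp for Grm4, 4368 bp for Grm2 and 3536 bp for Grm3, where the median of compared genes was 3531 bp. In cocaine against saline, genes of the length of Grm5 had a median difference of 0.21, and after centring within 20 length bins Grm5 stood at 0.31. Grm3 belonged to a bin with a median of -0.060 and stood at 0.55 when centred. Grm7 came to 0.39 and Grm4 to 0.094. Members with lanes apart and cocaine higher were then 3 (Grm3, Grm5 and Grm7), against 16.3% of compared genes. In withdrawal against saline the centred values were 0.65 for Grm3, now past 1.5 times with lanes apart, 0.46 for Grm4, 0.43 for Grm7 and 0.27 for Grm5. Grm8 was below genes of its length, at -0.19 in cocaine and -0.44 in withdrawal. With centring, the median over the 6 genes fell to 0.21 in cocaine and 0.35 in withdrawal, each against saline. In withdrawal against cocaine the correlation with length was 0.013, and Grm4 stayed at 0.35.

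**Figure D3:**
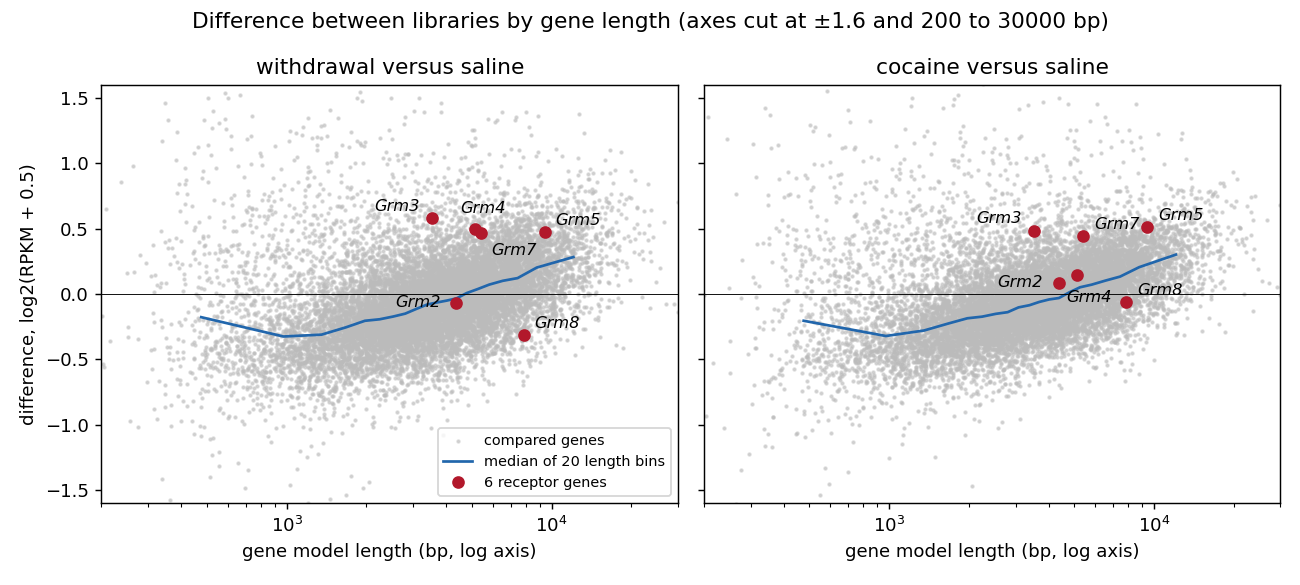
Difference in log2(RPKM + 0.5) against gene model length (log axis) for all compared genes (grey), the median of 20 length bins (blue line) and the 6 receptor genes (red), for withdrawal versus saline and cocaine versus saline. Grm3, Grm4, Grm5 and Grm7 lie above the line for their length in withdrawal, at centred values of 0.27 to 0.65, and Grm8 lies below it in both panels.

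The make-up of the family does not depend on a scale factor per lane. Shares still carry the trend with gene length, as the 6 genes differ in length. Grm5 made 47.6 ± 2.8% of the summed RPKM of the 6 genes in withdrawal, 50.5 ± 1.1% in cocaine and 47.4 ± 2.5% in saline (SD, n = 3 lanes), and these lanes overlapped. The group II pair made 23.6 ± 2.6% in withdrawal, 23.4 ± 2.0% in cocaine and 23.4 ± 0.98% in saline. Grm2 alone made 3.24 ± 0.89% in withdrawal, 3.72 ± 0.47% in cocaine and 4.70 ± 0.75% in saline, with overlapping lanes. The 3 group III genes made 28.9 ± 1.0% in withdrawal, 26.1 ± 0.95% in cocaine and 29.2 ± 1.6% in saline, the cocaine lanes being lowest. Within group III, Grm4 held 18.5%, 16.8% and 14.9% of the sum in the withdrawal lanes, 13.9%, 13.0% and 13.4% in the cocaine lanes, and 16.0%, 16.3% and 16.4% in the saline lanes. The cocaine lanes were all below the others for Grm4, whose mean RPKM was nonetheless higher in cocaine than in saline. Grm8 held 1.16 ± 0.33% in withdrawal, 1.53 ± 0.38% in cocaine and 2.14 ± 0.27% in saline. Every saline lane was above every withdrawal and cocaine lane, whereas the RPKM of Grm8 overlapped. The gap in share was narrow (lowest saline lane 1.91%, highest cocaine lane 1.89%). Shares also depend on the summed level, which was lower in saline. The summed level of the 6 genes was 107.5 ± 5.7 RPKM in withdrawal, 103.8 ± 3.2 RPKM in cocaine and 77.3 ± 4.3 RPKM in saline.

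**Figure D4:**
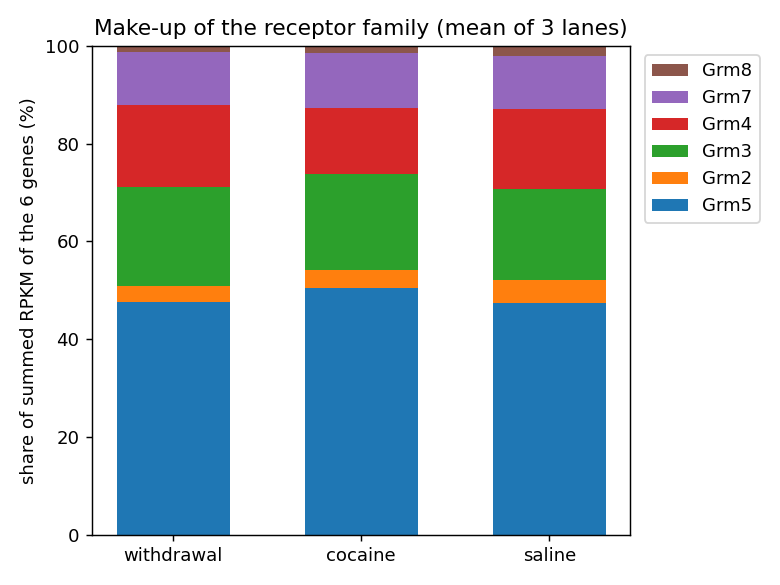
Share of each receptor gene in the summed RPKM of the 6 genes (percent, mean of 3 lanes) in the withdrawal, cocaine and saline libraries. Grm5 makes 47.4 to 50.5% in every library, and the Grm4 band is thinnest in cocaine at 13.4%.

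Of the 10 genes for scaffolds and binding proteins of group I receptors, 0 were called in cocaine against saline and 1 was called higher in withdrawal against saline, with list medians of 0.18 and 0.057. Counts for this and all later lists stand beside these shares of compared genes. In cocaine against saline 2.93% were called higher and 2.41% lower, and in withdrawal against saline 3.96% and 3.37%. In withdrawal against cocaine the shares were 0.47% and 0.548%. Centred by length, these medians were -0.00014 and 0.058. The called gene was Shank1, a scaffold of the postsynaptic density, at 80.1 ± 5.9 RPKM in withdrawal and 50.3 ± 1.2 RPKM in saline (0.66 ± 0.065, or 0.46 when centred by length, which ended the call). In cocaine its difference was 0.57 ± 0.051, just short of a call, and past the limit without the second cocaine lane (0.60), the third cocaine lane (0.59) or the third saline lane (0.59). Withdrawal against cocaine gave no call and a median of 0.050, Homer2 differing most (-0.14 ± 0.086). Genes of the Gq, phospholipase C and calcium release path of group I receptors, 13 of 15 compared, had no call in any comparison and medians of 0.11 for cocaine against saline, 0.029 for withdrawal against saline and 0.011 for withdrawal against cocaine. The largest differences among them were those of the protein kinase C gene Prkca in cocaine against saline (0.45 ± 0.068), of Dagla, the synthase of the endocannabinoid 2-AG, in withdrawal against saline (0.42 ± 0.068), and of the IP3 receptor gene Itpr1 in withdrawal against cocaine (0.20 ± 0.038). For this whole list, the medians against saline turned negative when centred by length, at -0.12 in cocaine and -0.079 in withdrawal.

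On the Gi/o side, 2 of 16 genes for G proteins, adenylyl cyclases and GIRK channels were called higher in cocaine against saline, 3 in withdrawal against saline and 0 in withdrawal against cocaine, and none lower, with medians of 0.076, 0.10 and -0.0050. Over all compared genes 2.93% were called higher in cocaine and 3.96% in withdrawal, each against saline. Length centring put the medians of the list against saline at 0.098 in cocaine and 0.11 in withdrawal. Adcy9, an adenylyl cyclase, was at 16.1 ± 0.29 RPKM in withdrawal, 13.5 ± 0.37 RPKM in cocaine and 7.03 ± 0.44 RPKM in saline (1.14 ± 0.052 for withdrawal and 0.89 ± 0.055 for cocaine, each against saline). Kcnj6, a subunit of the GIRK potassium channels that Gi/o-coupled receptors open, was at 1.92 ± 0.54 RPKM in withdrawal, 1.98 ± 0.31 RPKM in cocaine and 0.941 ± 0.22 RPKM in saline (0.74 ± 0.22 and 0.79 ± 0.16 against saline), and its withdrawal call ended without the first withdrawal lane (0.58) or with a pseudocount of 1 (0.58). The cyclase gene Adcy1 was called in withdrawal alone (0.67 ± 0.052, or 0.38 without a call when centred by length), and the difference between its 2 comparisons was not tested. Adcy5, the main cyclase of the striatum, differed most between withdrawal and cocaine (0.30 ± 0.049).

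Binding proteins of group III receptors had no call among 9 genes in any comparison, with medians of -0.14 for cocaine against saline, -0.21 for withdrawal against saline and -0.027 for withdrawal against cocaine. Centred by length, the medians against saline were -0.10 in cocaine and -0.067 in withdrawal. Elfn1, an adhesion protein that binds group III receptors across the synapse, was at 30.6 ± 3.0 RPKM in withdrawal, 28.7 ± 1.7 RPKM in cocaine and 20.9 ± 2.9 RPKM in saline. It lies outside the rule for named genes and was picked with its values in view. It passed the limit in withdrawal against saline without the first withdrawal lane (0.60) or the first saline lane (0.65). Its relative Elfn2 differed most in cocaine against saline (0.47 ± 0.037). The calmodulin gene Calm2 differed most in withdrawal against saline (-0.58 ± 0.037) and in withdrawal against cocaine (-0.14 ± 0.045), and passed the limit against saline without the second withdrawal lane (-0.62) or the second saline lane (-0.59).

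Of 9 genes for receptor desensitisation, 1 was called higher against saline in cocaine and in withdrawal and 0 in withdrawal against cocaine, with medians of -0.11, -0.025 and 0.00051. It was Grk5, a G protein-coupled receptor kinase, with 4.14 ± 0.37 RPKM in withdrawal, 4.22 ± 0.39 RPKM in cocaine and 2.61 ± 0.61 RPKM in saline (0.59 ± 0.18 and 0.62 ± 0.18 against saline). Those calls were lost without the second saline lane (0.43 for withdrawal and 0.45 for cocaine), without the first withdrawal (0.53) or first cocaine lane (0.55), with a pseudocount of 1 (0.52 and 0.54) and with the composite values (0.52 and 0.54). Grk4 differed most between withdrawal and cocaine (-0.29 ± 0.10). The desensitisation medians against saline were -0.025 in cocaine and 0.040 in withdrawal when centred by length. Among 9 compared genes of mGlu-dependent long-term depression, Arc, an immediate-early gene, was the single call, lower in cocaine at 9.50 ± 0.96 RPKM, against 15.6 ± 0.45 RPKM in saline (-0.69 ± 0.082), and the list medians were 0.043 for cocaine against saline, 0.084 for withdrawal against saline and 0.041 for withdrawal against cocaine. Length centring turned the medians against saline negative, at -0.092 in cocaine and -0.043 in withdrawal. Mtor differed most in withdrawal against saline (0.51 ± 0.061) and Arc in withdrawal against cocaine (0.24 ± 0.11).

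Genes of glutamate and NAAG supply and clearance, 13 of 14 compared, had medians of 0.088 for cocaine against saline, -0.026 for withdrawal against saline and -0.13 for withdrawal against cocaine, with 1 call in each comparison. Centred by length, the medians against saline were 0.076 in cocaine and -0.010 in withdrawal. Slc17a7, the vesicular glutamate transporter of cortical neurons, was called lower against saline, at 3.97 ± 0.58 RPKM in withdrawal, 5.54 ± 0.45 RPKM in cocaine and 18.3 ± 1.0 RPKM in saline. Slc17a6, the transporter of subcortical glutamate neurons, was called lower in withdrawal, at 6.41 ± 0.84 RPKM, than in cocaine, at 9.86 ± 1.1 RPKM (-0.59 ± 0.14). The Slc17a6 call ended without the first withdrawal lane (-0.48), without the third cocaine lane (-0.50), with a pseudocount of 1 (-0.55), with the composite values (-0.58), with length centring (-0.57), with 75th percentile scaling (-0.58) and when the median difference was moved to 0 (-0.58), and against saline it passed the limit without the third withdrawal lane (-0.60). Folh1, whose product cleaves NAAG, the agonist of mGlu3, was at 2.79 ± 0.95 RPKM in withdrawal, 3.07 ± 0.12 RPKM in cocaine and 2.76 ± 0.39 RPKM in saline and was likewise picked with its values in view.

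Levels of cell type markers bear on where these receptors are read, and in pooled bulk tissue fewer cells of a type and less RNA per cell cannot be told apart. The medium spiny neuron markers were abundant, with a summed level of 1728 to 1740 RPKM over the withdrawal lanes, 1432 to 1518 RPKM over the cocaine lanes and 1967 to 2061 RPKM over the saline lanes. Penk and Ppp1r1b made most of these sums, at a median of 1330 RPKM together in withdrawal, 1169 RPKM in cocaine and 1699 RPKM in saline. The other 8 genes summed to 384 to 402 RPKM in withdrawal, 304 to 314 RPKM in cocaine and 349 to 362 RPKM in saline, so without that pair withdrawal was highest. The list median was -0.26 in cocaine and 0.036 in withdrawal, each against saline. With lanes apart, 2 of the 10 were higher and 6 lower in cocaine against saline, and 3 were higher and 3 lower in withdrawal against saline. Over all compared genes 18.3% were higher and 23.9% lower with lanes apart in cocaine, and 18.6% and 25.6% in withdrawal. Of these 10 genes 2 were called lower in cocaine against saline, Ppp1r1b, which encodes DARPP-32 (388.9 ± 15 RPKM in cocaine and 655 ± 16 RPKM in saline), and Tac1 (-0.75 ± 0.066), and 1 was called higher in withdrawal against saline, Pde10a (0.69 ± 0.031, or 0.41 without a call when centred by length). Beside the higher Grm5 level in cocaine, the summed markers of the neurons it is known from were lower, and their part in the Grm5 difference was not tested. Astrocyte markers, beside which Grm3 can be read, summed to 1136 to 1180 RPKM in withdrawal, 1233 to 1241 RPKM in cocaine and 1270 to 1294 RPKM in saline. None of these 10 was called in cocaine against saline and 1 was called lower in withdrawal (S100b, -0.67 ± 0.053, or -0.42 without a call when centred by length). With lanes apart, 4 of the 10 were higher and 5 lower in cocaine against saline (median -0.15). In withdrawal against saline 3 were higher and 5 lower (median -0.25). In withdrawal against cocaine 1 was higher and 4 lower (median -0.10), where 8.66% of compared genes were higher and 9.42% lower with lanes apart. Those higher in both comparisons with saline, named with their values in view, were the water channel gene Aqp4 (0.38 ± 0.10 in withdrawal and 0.37 ± 0.13 in cocaine) and the glutamate transporter genes Slc1a2 (0.30 ± 0.021 and 0.28 ± 0.021) and Slc1a3 (0.11 ± 0.028 and 0.24 ± 0.013). Centred by length, Slc1a2 stood at 0.095 in withdrawal and 0.071 in cocaine, and Slc1a3 at -0.010 and 0.11. The median of the 10 astrocyte markers, centred the same way, was -0.15 in withdrawal and -0.053 in cocaine, each against saline. The part of astrocytes in the Grm3 difference was not tested. Gfap was at 19.7 ± 1.2 RPKM in withdrawal, 21.6 ± 1.1 RPKM in cocaine and 25.3 ± 2.3 RPKM in saline.

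Cortical projection neuron markers summed to 117 to 124 RPKM in withdrawal, 140 to 157 RPKM in cocaine and 185 to 199.7 RPKM in saline (10 genes, 6 of them compared). Nrgn made most of this, and the other 9 genes summed to 19.3 to 21.1 RPKM in withdrawal, 20.7 to 24.6 RPKM in cocaine and 32.9 to 35.7 RPKM in saline. Beside Slc17a7, Fezf2 (-0.74 ± 0.23) and Nrgn (-0.67 ± 0.046) were called lower in withdrawal against saline. The markers did not move together. Cux2 was higher with lanes apart (0.48 ± 0.077 in withdrawal and 0.44 ± 0.071 in cocaine, against saline), while Rorb overlapped in both (-0.027 ± 0.056 and -0.027 ± 0.071). Tbr1 was at -0.39 ± 0.13 in withdrawal, with lanes apart, and at 0.036 ± 0.23 in cocaine. Length centring ended the calls of Fezf2 (-0.54) and Nrgn (-0.36), and so did, for Fezf2, leaving out the second withdrawal lane (-0.58) and a pseudocount of 1 (-0.56). Endothelial markers summed to a median of 69.5 RPKM over the withdrawal lanes, 59.4 RPKM over the cocaine lanes and 43.3 RPKM over the saline lanes, with no overlap. Against saline 6 of 7 were called higher in withdrawal and 3 of 7 in cocaine, where 3.96% and 2.93% of compared genes were called higher. Flt1, a VEGF receptor, differed most (0.86 ± 0.052 in withdrawal and 0.80 ± 0.067 in cocaine, or 0.57 and 0.50 without a call when centred by length). Tek and Cdh5 were also called in both and Cldn5, Pecam1 and Kdr in withdrawal. The call was lost for Cldn5 without the third withdrawal lane (0.55), for Cdh5 in cocaine without the third saline lane (0.52) and for Tek in withdrawal with a pseudocount of 1 (0.58). The part of these cells in the receptor differences was not tested. Oligodendrocyte, oligodendrocyte precursor and microglia markers had no call in any comparison. Oligodendrocyte markers summed to 1806 to 1823 RPKM in withdrawal, 1894 to 1939 RPKM in cocaine and 2000 to 2019 RPKM in saline. Against saline, 5 of these 8 were lower and 0 higher with lanes apart in withdrawal, and 3 lower and 1 higher in cocaine. Of the 6 precursor markers, 3 were higher and 0 lower with lanes apart in each comparison with saline. Over all compared genes, 18.6% were higher and 25.6% lower with lanes apart in withdrawal, and 18.3% and 23.9% in cocaine, each against saline. Interneuron markers had Nos1 called higher in cocaine (0.61 ± 0.053) and in withdrawal (0.80 ± 0.055) and Calb2 lower in withdrawal (-0.77 ± 0.078), each against saline. Length centring ended these 3 calls (0.31, 0.52 and -0.51), as leaving out the first saline lane did for Nos1 in cocaine (0.58). Choroid plexus and ependymal markers (4 of 6 compared) had Ttr called higher in cocaine against saline (1.498 ± 0.40) and lower in withdrawal against cocaine (-2.45 ± 0.32), and Ccdc153 lower in cocaine against saline (-0.60 ± 0.26, a call lost without the first cocaine lane at -0.39, without the second saline lane at -0.47, with a pseudocount of 1 at -0.52, with the median difference set to 0 at -0.55, with 75th percentile scaling at -0.54, with composite values at -0.55 and with length centring at -0.32). Of 6 septal, thalamic and hypothalamic markers, Pmch was called lower against saline in cocaine (-1.73 ± 0.35) and in withdrawal (-2.02 ± 0.73), beside the Slc17a6 call above. No marker of the 10 lists was at 0 in all lanes of a library.

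The genes whose values over the 9 lanes followed each receptor most closely were picked by Pearson's r among genes that averaged 3 RPKM or more. They are the top 3 of 10226 genes searched for each receptor, or of 10227 for Grm8. The 9 points share 3 libraries, so this is a description of these lanes. Grm5 was followed by Dner (0.996), Ahdc1 (0.984) and Itgb8 (0.981), and Grm3 by Tnrc6b (0.991), Ptprn2 (0.988) and Cachd1 (0.986). Tbc1d9b (0.979), Mdn1 (0.976) and Cul7 (0.971) were closest to Grm7. For Grm4 they were Brf1 (0.966), Rgl2 (0.964) and Bai1 (0.955), which shared its order of means with withdrawal highest and saline lowest, such as 84.5 RPKM, 73.6 RPKM and 66.5 RPKM for Bai1. The lanes of Grm2 and Grm8 overlapped between all libraries. Highest in r were Usp28 (0.956), Cd164 (0.912) and Tfrc (0.907) for Grm2, and Fam171b (0.962), Ttc3 (0.940) and Armcx1 (0.928) for Grm8.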

How the data were processed

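The deposited values are RPKM, given by the authors for every lane and for the 3 lanes of a library merged, per the file headers, which also list lane totals. The submitters' processing notes name the aligner Bowtie 0.12.7 and the build mm9; the counter, the annotation and the use of strand are not given in the sources used here. Lane totals ran from 5546362 to 12026754, and library totals were 19452882 for withdrawal, 24219333 for cocaine and 26006605 for saline. The 37-base reads entered as fractions (steps of 1/37, to a relative error of 8.5e-14), so no count test was run; the same steps gave each gene's model length, multiplied by 37 for 108 genes to match reference lengths, and the reads quoted per gene. With 1 library per group no p-value was computed.

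Lane values were analysed as log2(RPKM + 0.5), a scale that shrinks differences of low genes, for the 14051 genes that averaged 1 RPKM or more, using Python 3.11.15, pandas 2.3.3 and numpy 2.4.6. The median SD between lanes was 0.114 to 0.130 on this scale. Alternatives were the pseudocount, filter, size limit, lane condition, scaling, length centring, composite values, lane number as a block and each lane left out. Named genes were the 6 members, per list and comparison up to 4 called genes or else the most different one, called markers of the cell type lists, Slc17a7, Gfap and Ppp1r1b, and the 3 genes most correlated with each member. One gene of the fixed lists is not reported here. Members and lists were chosen with earlier results of these data known. No coordinates on mm9 are given, since the files hold none.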

Additional observations from a re-analysis of the deposited data

How the results depend on the processing

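With 1 pooled library per group, what follows concerns these libraries only; low members (Grm2, Grm8) are limited by their reads. No member was called in any of the 3 comparisons at 1.5 times. The count was also 0 at 2 times, with a pseudocount of 1, a filter of 5 RPKM or none, or no condition on the lanes. None of these settings could have added a call. No difference reached 0.585, and they leave the differences unchanged or, with the pseudocount, shrink them. The filter of 5 RPKM also left out Grm2 and Grm8. A limit of 25% gave 3 members in cocaine against saline, 4 in withdrawal against saline and 1 in withdrawal against cocaine. The count in cocaine against saline was 1 (Grm5) with 75th percentile scaling. In withdrawal against saline it was 1 (Grm3) with a pseudocount of 0.1, the median difference set to 0, 75th percentile scaling, length centring or composite values; the cause was not tested. With single lanes left out, the count of called members ran from 0 to 1 in both comparisons with saline and was 0 in withdrawal against cocaine. The number of members with lanes apart, a count added after the data were seen, ran from 4 to 5, from 4 to 6 and from 1 to 3 with a lane left out, in cocaine against saline, withdrawal against saline and withdrawal against cocaine; with fewer lanes more genes part, 49.9% to 51%, 51.6% to 53.2% and 26.4% to 29.3% of all compared genes, against 42.1%, 44.2% and 18.1% with every lane. Length centring gave 3, 5 and 1 members with lanes apart, against 32.6%, 36.7% and 18% of all compared genes. These counts of lanes apart take both directions together. In withdrawal against saline 4 members were higher with lanes apart under length centring, against 18.7% of compared genes. With any lane left out 4 were likewise higher, against 21.6% to 22.5%, and any further members were lower. Lane numbers did not pair the samples (correlations of deviations from -0.051 to 0.076); with the replicate block 0 members were called in every comparison, and 4, 5 and 2 had same-numbered lanes differing in 1 direction, as did 55.9%, 57.9% and 35.8% of all compared genes. Differences of Grm3, Grm4, Grm5 and Grm7 from saline kept their sign under all 18 settings. The filters, size limits, lane condition and replicate block leave each difference as it was, so only the remaining settings could have turned a sign. The sign changed under 1 or 2 of 17 settings for Grm2 and Grm8 in cocaine against saline and for Grm2 in withdrawal against saline. In withdrawal against cocaine it changed under 1 of 18 for Grm5 and under 2 of 18 for Grm7.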
